A study of Mus musculus with 6 samples.

Results

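Glucose uptake, glycolysis, the control of pyruvate and the pentose phosphate pathway were followed through 36 genes in splenic TCRb+CD4+CD44-CD127+ T cells of mice carrying an Ikzf3 variant. The genes were chosen by symbol from the 25239 genes listed in each count file. All 36 were listed in all 6 files, and all 36 passed the filter on low counts. They comprised 5 genes of glucose and lactate transport, 12 of upper glycolysis, 9 of lower glycolysis, 5 of pyruvate control and 5 of the pentose phosphate pathway. RNA-seq covered 3 genotypes, Ikzf3 +/+, Ikzf3 +/N159S and Ikzf3 N159S/N159S, with 2 libraries each, all from FACS-purified spleen cells of C57BL/6 mice. Ikzf3 encodes Aiolos, a zinc finger transcription factor of the Ikaros family, and N159S is a change in its coding sequence that was introduced by CRISPR/Cas9 genome editing. The variant was carried by the mouse line and not limited to T cells, and CD127 took the place of CD62L in the sort for naive T cells. The labels gave no age and no treatment other than the sort, and they did not name the animal behind each library. The study's methods count the samples of a genotype as mice, so its libraries are taken here as separate mice.

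Glucose enters lymphocytes through the transporters encoded by Slc2a1 and Slc2a3, is phosphorylated by hexokinase and is split and oxidised to pyruvate by glycolysis. Lactate dehydrogenase turns pyruvate into lactate, whereas pyruvate carriers and pyruvate dehydrogenase lead it into mitochondria, and the pentose phosphate pathway branches off at glucose 6-phosphate to make NADPH and ribose phosphate. Naive T cells keep glycolysis low and raise it on activation, when Myc and Hif1a, which bind short motifs at the promoters of many of these genes, come into play.

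The sequences of the 250 bases before the start of Eno1 and of Ldha are given because both genes are textbook targets of these factors, while Eno1 was the member that fell in both comparisons with Ikzf3 +/+ and Ldha was the abundant lower glycolysis gene that passed neither test. Both sequences were taken from RefSeq (build GRCm38.p6, plus strand, 5′ to 3′). Capitals mark ACGTG or GCGTG on either strand, the core of the hypoxia response element.
Eno1 promoter, chr4:150236458-150236707: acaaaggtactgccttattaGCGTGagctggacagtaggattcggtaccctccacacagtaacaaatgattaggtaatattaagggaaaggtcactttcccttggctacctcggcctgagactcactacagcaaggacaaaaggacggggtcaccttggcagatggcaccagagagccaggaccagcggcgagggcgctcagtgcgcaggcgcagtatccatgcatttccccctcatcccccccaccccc
Ldha promoter, chr7:46845554-46845803: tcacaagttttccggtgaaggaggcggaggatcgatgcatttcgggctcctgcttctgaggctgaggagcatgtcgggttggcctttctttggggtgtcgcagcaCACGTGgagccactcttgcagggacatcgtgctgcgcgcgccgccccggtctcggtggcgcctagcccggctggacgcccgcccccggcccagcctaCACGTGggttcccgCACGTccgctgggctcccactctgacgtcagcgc
The Eno1 window held 1 run of these letters and the Ldha window held 3. In the Ldha window, 2 of the runs were the E-box CACGTG, the motif bound by Myc, which contains ACGTG on both strands. Among the 35 members found in the promoter table, 29 held ACGTG or GCGTG, or 82.9%, against 38.6% of all 27025 promoters of the same length. ACGTG alone was held by 12 members (34.3%) and 16.5% of all promoters, GCGTG by 22 members (62.9%) and 28.3%, and the E-box by 4 members (11.4%) and 6.04%. TGGGAA, a motif recognised by Ikaros family proteins, was held by 6 members (17.1%) and by 21.5% of all promoters. Neither the Eno1 nor the Ldha window was among the 6. The shorter GGGAA, on either strand, occurs in both windows and was not counted. These are letter matches and not measured binding sites. The 27025 promoters were not limited to genes expressed in these cells and were not matched for base composition. The part of either in the higher shares was not tested.

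Reads counted on genes ranged from 11696461 to 17317260 per library, and 14803 to 18147 genes had at least 1 read. Levels are given as CPM, reads scaled to a common library size with the TMM factors of edgeR. The CD4 T cell markers summed to 5958 and 5674 CPM with Ikzf3 +/+, 5156 and 4928 CPM with Ikzf3 +/N159S and 5153 and 5223 CPM with Ikzf3 N159S/N159S over the 10 of 13 listed in the files, where Trac, Trbc1 and Trbc2 were not among the rows. Both Ikzf3 +/+ libraries were thus above all 4 variant libraries in this sum, as they were for Eno1, Ldhb, Pfkp and Pkm. Part of this difference lay in Il7r, a gene of the list that encodes CD127, which was used in the sort. Il7r was at 1287 and 1216 CPM with Ikzf3 +/+, 885 and 898 CPM with Ikzf3 +/N159S and 944 and 1026 CPM with Ikzf3 N159S/N159S. The 13 B cell markers listed summed to 218 and 341 CPM with Ikzf3 +/+, 578 and 952 CPM with Ikzf3 +/N159S and 220.2 and 146 CPM with Ikzf3 N159S/N159S. Xist, the transcript of the inactive X chromosome, was at 0.772 and 1.01 CPM with Ikzf3 +/+, at 730.1 and 824 CPM with Ikzf3 +/N159S and at 1.98 and 1.24 CPM with Ikzf3 N159S/N159S, and the Y-linked Ddx3y was at 305 and 313 CPM with Ikzf3 +/+, at 1.06 and 1.09 CPM with Ikzf3 +/N159S and at 263 and 279 CPM with Ikzf3 N159S/N159S. Thus both Ikzf3 +/N159S libraries differed from the other 4 in sex-linked transcripts as well as in Ikzf3 genotype, and for every comparison with Ikzf3 +/N159S these cannot be told apart. Ikzf3 itself was at 157 and 154 CPM with Ikzf3 +/+, at 168 and 152 CPM with Ikzf3 +/N159S and at 197 and 202 CPM with Ikzf3 N159S/N159S, and gene counts do not show the N159S change, so they do not check the genotype labels.

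The comparison of Ikzf3 N159S/N159S with Ikzf3 +/+ addressed how expression differs when both alleles carry the variant. In it, 4 of the 36 genes fell and none rose at a false discovery rate (FDR, the Benjamini-Hochberg adjusted p over 12117 genes) under 0.05 by edgeR's quasi-likelihood test. The 4 were Eno1, Ldhb, Pfkp and Pkm, 3 of them in lower glycolysis. They were 11.1% of the members, whereas 5.21% of all tested genes were called in either direction, 2.1% lower and 3.1% higher. At an unadjusted p under 0.05 there were 16 members, or 44.4%, where 18.4% of all genes passed that limit, and DESeq2 called 4 members, all of them lower, and 5.54% of all genes. The members' median log2 fold change was -0.07 and that of all genes was 0.00018, and 31 of the 36 had a log2 fold change smaller than 0.5 in size (86.1%, against 83.2% of all genes). Without the filter on low counts 9 members were called, 5 lower and 4 higher, and the likelihood ratio test called 7, 4 lower and 3 higher. A block that paired libraries by their number of genes detected called 14, 10 lower and 4 higher. The calls over all genes rose as well under these settings, to 1047, 1042 and 1760 from 631, and more genes were tested without the filter. With any single Ikzf3 +/+ or Ikzf3 N159S/N159S library left out 1 or 2 were called, Eno1 among them each time.

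In Ikzf3 +/N159S against Ikzf3 +/+, which asked the same of 1 variant allele, only Eno1 was called, lower. That was 2.78% of the members against 1.75% of all genes in either direction, 0.586% lower and 1.16% higher. DESeq2 called 2 members in this comparison and 2.99% of the genes to which it gave an adjusted p. At an unadjusted p under 0.05 there were 7 members, or 19.4%, near the 16.3% of all genes. Between Ikzf3 N159S/N159S and Ikzf3 +/N159S, Txnip alone was called, higher in Ikzf3 N159S/N159S, where 1.49% of all genes were called in either direction and 0.553% higher. Because the first 2 comparisons share the Ikzf3 +/+ libraries, their values are set side by side in the plot of fold changes and are not independent of each other. In bulk RNA, fewer cells of a type and less RNA per cell cannot be told apart.

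**Figure D1:**
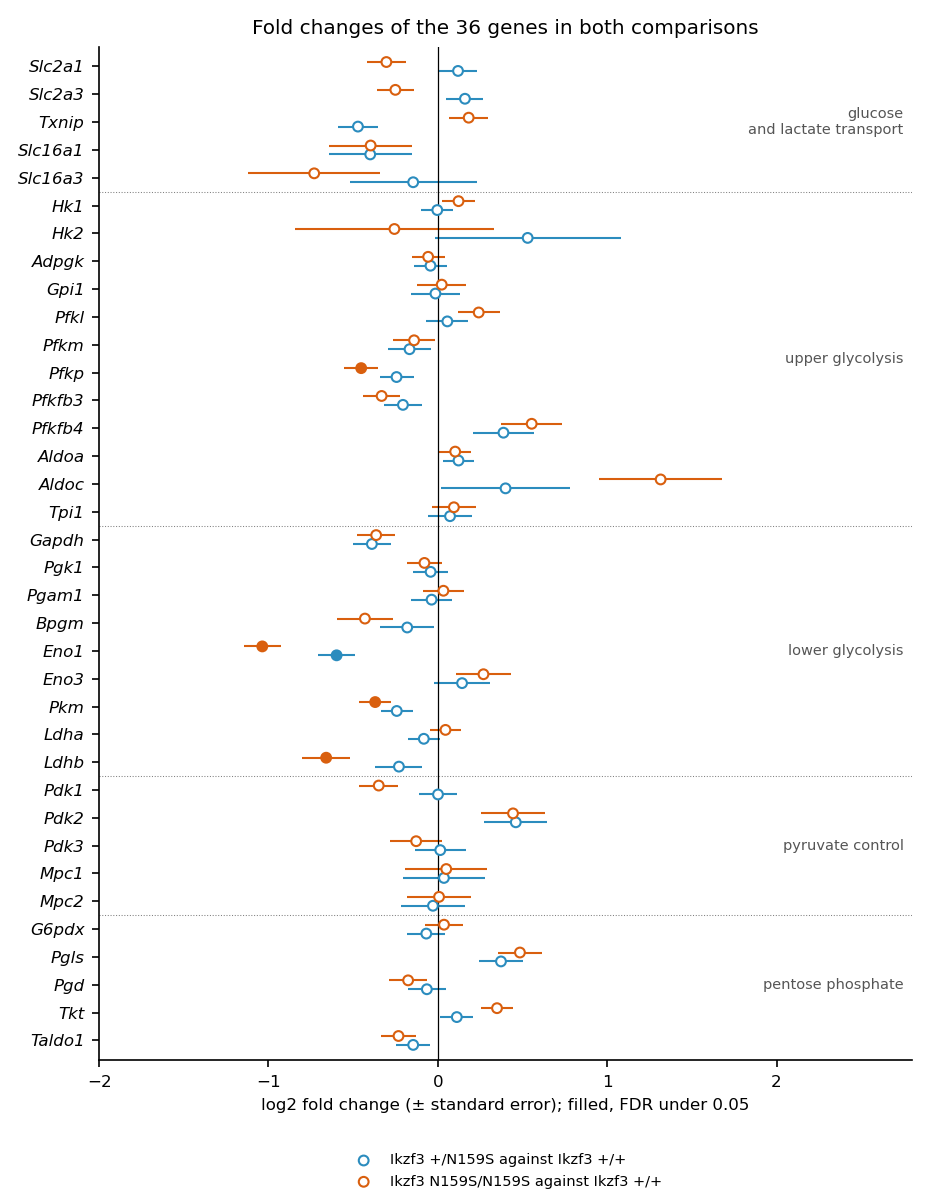
Log2 fold change of each of the 36 genes (points, with the standard error as bars) in Ikzf3 +/N159S (blue) and Ikzf3 N159S/N159S (orange) against Ikzf3 +/+, grouped by step. Filled points had an FDR under 0.05. Eno1 lies farthest to the left in both comparisons among the filled points, at -1.04 and -0.60, and Aldoc, with few reads, lies farthest to the right at 1.32.

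In lower glycolysis, 3 of 9 genes fell in Ikzf3 N159S/N159S, and the step's median log2 fold change was -0.36. Eno1 (chr4:150236708-150248879, GRCm38), which encodes the enolase that makes phosphoenolpyruvate, was at 536 and 505 CPM with Ikzf3 +/+, at 371 and 317 CPM with Ikzf3 +/N159S and at 269 and 238 CPM with Ikzf3 N159S/N159S. The genotypes did not overlap, and each library with more variant alleles was below each library with fewer. The group means were 520.4 ± 21.7, 344 ± 38.1 and 254 ± 21.6 CPM (SD, n = 2), so that Eno1 was 2.05-fold higher in Ikzf3 +/+ than in Ikzf3 N159S/N159S. The log2 fold change was -1.04 (SE 0.11, FDR 0.000316 by edgeR's quasi-likelihood test) with both alleles changed and -0.60 (SE 0.11, FDR 0.0232) with 1. The first call held under all 15 alternatives tried, with log2 fold changes from -1.13 to -0.94, whereas the second was lost without either Ikzf3 +/+ library or without Ikzf3 +/N159S replicate 2. The step between Ikzf3 +/N159S and Ikzf3 N159S/N159S was -0.44 (SE 0.11) and did not pass (FDR 0.0886 by edgeR's quasi-likelihood test). Of the 50-base words of the Eno1 transcript, 72.2% also occur in transcripts of 9 other genes, most in its retrogene Eno1b. Reads without a unique alignment were not counted on genes, so part of the Eno1 reads may be missing from its count. Eno1b was at 10.4 and 8.27 CPM with Ikzf3 +/+, at 7.43 and 6.88 CPM with Ikzf3 +/N159S and at 5.93 and 4.25 CPM with Ikzf3 N159S/N159S, and its own log2 fold change of -0.86 did not pass (FDR 0.0568 by edgeR's quasi-likelihood test).

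Pkm (chr9:59656576-59679372), the pyruvate kinase gene of most tissues, was at 681 and 706 CPM with Ikzf3 +/+, at 606 and 567 CPM with Ikzf3 +/N159S and at 536 and 537 CPM with Ikzf3 N159S/N159S. All 3 genotypes were apart, in the order of allele number. Pkm fell by 0.37 on the log2 scale in Ikzf3 N159S/N159S (SE 0.09, FDR 0.0457 by edgeR's quasi-likelihood test), and for 1 variant allele its log2 fold change was -0.24 (FDR 0.234). This call was lost without any one of the 4 libraries compared and with the replicate number as a block. Pkm shares 34.4% of its 50-base words with other genes, and counts per gene do not separate its M1 and M2 transcripts.

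Ldhb (chr6:142490249-142507957), the lactate dehydrogenase subunit of oxidative tissues, was at 31.4 and 28.2 CPM with Ikzf3 +/+, at 27.6 and 23.1 CPM with Ikzf3 +/N159S and at 19.9 and 17.7 CPM with Ikzf3 N159S/N159S. It too followed allele number without overlap, with a narrow gap between Ikzf3 +/+ and Ikzf3 +/N159S. Ldhb fell by 0.66 on the log2 scale in Ikzf3 N159S/N159S (SE 0.14, FDR 0.0213 by edgeR's quasi-likelihood test), and its log2 fold change of -0.23 for 1 variant allele did not pass. The call was lost without Ikzf3 +/+ replicate 1, Ikzf3 +/+ replicate 2 or Ikzf3 N159S/N159S replicate 2.

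**Figure D2:**
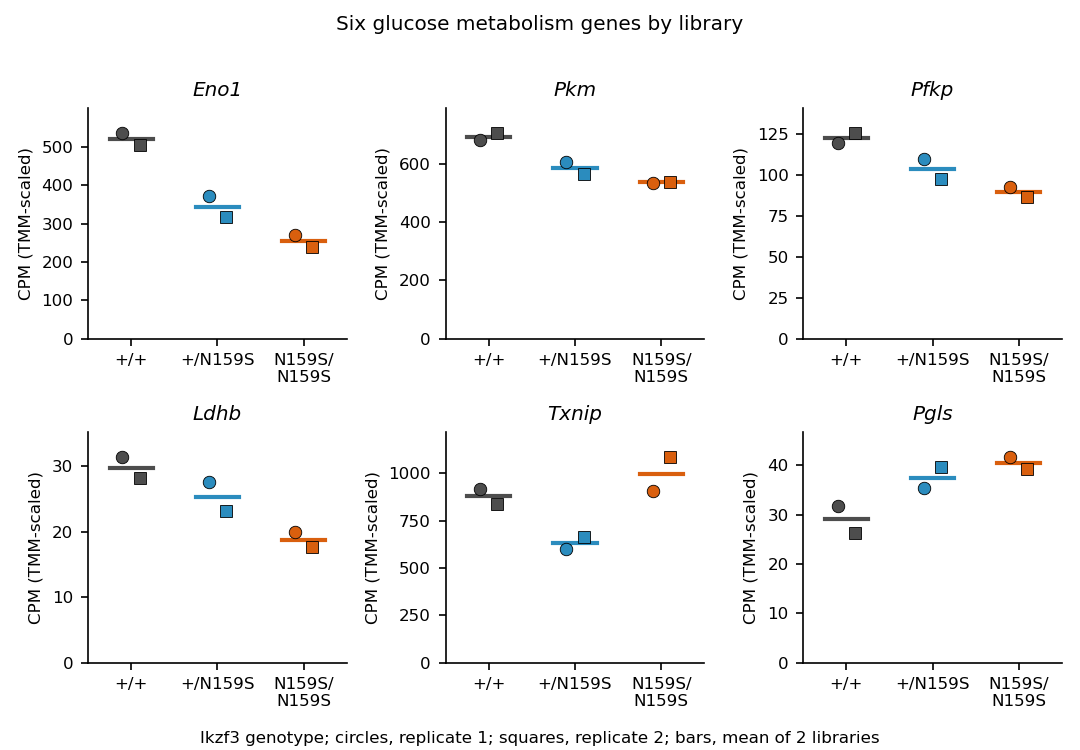
Level of 6 genes in each library, in CPM scaled by TMM (circle, replicate 1; square, replicate 2; bar, mean of 2 libraries), with every axis starting at 0. Eno1, Pkm, Pfkp and Ldhb step down with each N159S allele, Txnip is lowest in the Ikzf3 +/N159S libraries and Pgls is lowest in the Ikzf3 +/+ libraries.

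The other 6 genes of lower glycolysis did not pass in either comparison. Ldha, the lactate dehydrogenase subunit of glycolytic tissues, was at 459.8 and 457 CPM with Ikzf3 +/+, at 452 and 414 CPM with Ikzf3 +/N159S and at 473 and 473 CPM with Ikzf3 N159S/N159S, with a log2 fold change of 0.05 (SE 0.09) for 2 variant alleles. The Ldha libraries of Ikzf3 N159S/N159S were slightly above those of Ikzf3 +/+, beside a lower Ldhb. Gapdh, which encodes the dehydrogenase that makes NADH in glycolysis, was at 66.8 and 70.5 CPM with Ikzf3 +/+, at 55.96 and 48.9 CPM with Ikzf3 +/N159S and at 56.2 and 50.5 CPM with Ikzf3 N159S/N159S. Both variant genotypes lay below Ikzf3 +/+ in Gapdh, with log2 fold changes of -0.36 and -0.39 (FDR 0.0940 and 0.110 by edgeR's quasi-likelihood test), and 82.5% of its 50-base words occur in its many pseudogenes. Bpgm, which encodes the enzyme of the 2,3-bisphosphoglycerate shunt, was at 28.4 and 22.99 CPM with Ikzf3 +/+, at 25.5 and 19.6 CPM with Ikzf3 +/N159S and at 19.5 and 18.5 CPM with Ikzf3 N159S/N159S (log2 fold change -0.43, FDR 0.182 by edgeR's quasi-likelihood test in Ikzf3 N159S/N159S). Pgk1 and Pgam1, which act between Gapdh and enolase, and Eno3, the muscle enolase, had log2 fold changes of -0.08, 0.03 and 0.27 in Ikzf3 N159S/N159S, all with overlapping libraries.

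Upper glycolysis, from hexokinase to triose phosphate isomerase, had 1 of 12 genes called in Ikzf3 N159S/N159S and a median log2 fold change of 0.06. Pfkp (chr13:6579874-6649060), the platelet type of phosphofructokinase, which catalyses the committed step, was at 119 and 125 CPM with Ikzf3 +/+, at 109 and 97.4 CPM with Ikzf3 +/N159S and at 92.6 and 86.3 CPM with Ikzf3 N159S/N159S. Its libraries fell in the order of allele number without overlap. Pfkp fell by 0.45 on the log2 scale in Ikzf3 N159S/N159S (SE 0.10, FDR 0.0255 by edgeR's quasi-likelihood test) and had a log2 fold change of -0.24 for 1 variant allele, which did not pass. The call was lost without any one of the 4 libraries compared. The 3′ part of the Pfkp transcript overlaps Pitrm1 and 17.1% of its 50-base words are shared, while Pitrm1 itself was at 64.1 and 74.2 CPM with Ikzf3 +/+, at 70.3 and 64.4 CPM with Ikzf3 +/N159S and at 63.3 and 62.9 CPM with Ikzf3 N159S/N159S.

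The liver type Pfkl was at 62.2 and 80.3 CPM with Ikzf3 +/+, at 75.1 and 73.4 CPM with Ikzf3 +/N159S and at 88.1 and 80.7 CPM with Ikzf3 N159S/N159S and the muscle type Pfkm at 24.8 and 27.2 CPM with Ikzf3 +/+, at 22.5 and 23.9 CPM with Ikzf3 +/N159S and at 23.8 and 23.3 CPM with Ikzf3 N159S/N159S. Pfkl libraries of Ikzf3 N159S/N159S were above those of Ikzf3 +/+ by a narrow margin (log2 fold change 0.24) and Pfkm libraries were below (log2 fold change -0.14), and neither passed. Pfkfb3 and Pfkfb4 encode enzymes that make and remove fructose 2,6-bisphosphate, an activator of phosphofructokinase. Pfkfb3 was at 70.4 and 71.99 CPM with Ikzf3 +/+, at 66.6 and 56.8 CPM with Ikzf3 +/N159S and at 59.01 and 54.1 CPM with Ikzf3 N159S/N159S, and Pfkfb4 at 12.2 and 15.9 CPM with Ikzf3 +/+, at 19.05 and 17.8 CPM with Ikzf3 +/N159S and at 23.5 and 17.7 CPM with Ikzf3 N159S/N159S. They lay in opposite directions in Ikzf3 N159S/N159S, with log2 fold changes of -0.33 and 0.55 (FDR 0.126 and 0.116 by edgeR's quasi-likelihood test).

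Hk1, the constitutive hexokinase, was at 156 and 164 CPM with Ikzf3 +/+, at 167 and 153 CPM with Ikzf3 +/N159S and at 179 and 169.5 CPM with Ikzf3 N159S/N159S, and Hk2, the inducible hexokinase, at 1.20 and 0.672 CPM with Ikzf3 +/+, at 1.002 and 1.67 CPM with Ikzf3 +/N159S and at 0.930 and 0.586 CPM with Ikzf3 N159S/N159S. Hexokinase reads were thus almost all from Hk1 in every genotype, and neither gene passed. Gpi1, Adpgk and Tpi1, the enzymes of glucose 6-phosphate isomerisation, of ADP-dependent glucose phosphorylation and of triose phosphate isomerisation, had log2 fold changes of 0.02, -0.06 and 0.09 in Ikzf3 N159S/N159S, with overlapping libraries. Aldoa, the main aldolase, was at 300.0 and 293 CPM with Ikzf3 +/+, at 333 and 312 CPM with Ikzf3 +/N159S and at 328 and 309 CPM with Ikzf3 N159S/N159S. Aldoc, the brain type of aldolase, rested on 20 to 67 reads per library and was at 1.89 and 1.34 CPM with Ikzf3 +/+, at 2.48 and 1.74 CPM with Ikzf3 +/N159S and at 3.90 and 4.10 CPM with Ikzf3 N159S/N159S. Both Ikzf3 N159S/N159S libraries of Aldoc were above the other 4, with a log2 fold change of 1.32 (SE 0.37) that did not pass (FDR 0.0656 by edgeR's quasi-likelihood test) but did under 6 of 15 alternatives.

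No transport gene passed against Ikzf3 +/+ in either variant genotype by edgeR's quasi-likelihood test. An unadjusted p under 0.05 was reached by 2 of 5 for 2 variant alleles and 1 for 1 allele (18.4 and 16.3% of all genes did). DESeq2 called 0 and 1, where it called 5.54 and 2.99% of the genes to which it gave an adjusted p. Slc2a1, which encodes the main glucose transporter of activated T cells, was at 44.5 and 43.96 CPM with Ikzf3 +/+, at 45.8 and 50.3 CPM with Ikzf3 +/N159S and at 33.8 and 37.99 CPM with Ikzf3 N159S/N159S. Slc2a3, which encodes a transporter of high affinity, was at 49.5 and 58.3 CPM with Ikzf3 +/+, at 59.9 and 60.8 CPM with Ikzf3 +/N159S and at 44.8 and 46.04 CPM with Ikzf3 N159S/N159S. For both transporters the Ikzf3 N159S/N159S libraries were lowest and the Ikzf3 +/N159S libraries highest, although the nearest libraries were close. The log2 fold changes in Ikzf3 N159S/N159S were -0.30 (SE 0.11) and -0.25 (SE 0.11), with an FDR of 0.179 and 0.257 by edgeR's quasi-likelihood test. Slc16a1 and Slc16a3, which encode transporters of lactate and other monocarboxylates, were low, at 11.7 to 22.1 and 1.39 to 2.83 CPM over the 6 libraries, and had log2 fold changes of -0.40 and -0.73.

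Txnip (chr3:96557957-96561857) encodes an arrestin-like protein that draws glucose transporters in from the cell surface, and it was the most abundant member per length in Ikzf3 +/+ and Ikzf3 N159S/N159S. It was at 919 and 836 CPM with Ikzf3 +/+, at 601 and 664 CPM with Ikzf3 +/N159S and at 905 and 1085 CPM with Ikzf3 N159S/N159S. Both Ikzf3 +/N159S libraries were below the other 4, and the Ikzf3 +/+ and Ikzf3 N159S/N159S libraries overlapped. Txnip was higher in Ikzf3 N159S/N159S than in Ikzf3 +/N159S (log2 fold change 0.65, SE 0.12, FDR 0.0181 by edgeR's quasi-likelihood test), and it did not differ past the threshold in Ikzf3 N159S/N159S against Ikzf3 +/+ (log2 fold change 0.18, FDR 0.455). Against Ikzf3 +/+, Ikzf3 +/N159S had a Txnip log2 fold change of -0.47 (SE 0.12, FDR 0.0704 by edgeR's quasi-likelihood test), which passed under 4 of 15 alternatives, DESeq2 among them. The call against Ikzf3 N159S/N159S was lost without Ikzf3 +/N159S replicate 1 or without Ikzf3 N159S/N159S replicate 2.

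A test of Ikzf3 +/N159S against the log2 midpoint between Ikzf3 +/+ and Ikzf3 N159S/N159S also called Txnip alone among the 36 genes, below the midpoint by 0.56 (SE 0.10, FDR 0.0298 by edgeR's quasi-likelihood test), where 0.933% of all genes were called, 0.19% below and 0.743% above. The Txnip midpoint call was lost without Ikzf3 +/+ replicate 1, either Ikzf3 +/N159S library or Ikzf3 N159S/N159S replicate 2. The 2 libraries with low Txnip were also those with the highest B cell marker sums, the only ones rich in Xist and the only ones without Ddx3y at the level of the rest, and the part of these in the result was not tested. The transcript of Txnip shares 18.4% of its 50-base words with the antisense gene Gm15441, which was at 2.23 and 4.03 CPM with Ikzf3 +/+, at 1.77 and 1.09 CPM with Ikzf3 +/N159S and at 4.07 and 3.44 CPM with Ikzf3 N159S/N159S, far below Txnip.

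Mlxip encodes MondoA, a glucose-responsive transcription factor known to activate Txnip, and it was named after its values were seen. It was at 233 and 259.8 CPM with Ikzf3 +/+, at 185 and 186 CPM with Ikzf3 +/N159S and at 274 and 298 CPM with Ikzf3 N159S/N159S. As for Txnip, both Ikzf3 +/N159S libraries, which alone were rich in Xist, were below the other 4. A link between Mlxip and Txnip was not tested. Against Ikzf3 +/+, Mlxip did not pass by edgeR's quasi-likelihood test (-0.41, FDR 0.0655, in Ikzf3 +/N159S and 0.22, FDR 0.271, in Ikzf3 N159S/N159S). Mlxip was higher in Ikzf3 N159S/N159S than in Ikzf3 +/N159S (log2 fold change 0.63, SE 0.10, FDR 0.0109 by edgeR's quasi-likelihood test), as were 0.553% of all genes. It was below the midpoint in Ikzf3 +/N159S (log2 difference -0.52, SE 0.09, FDR 0.0203), as were 0.19% of all genes. The first call was lost without Ikzf3 N159S/N159S replicate 2, and the second without Ikzf3 +/+ replicate 2, either Ikzf3 +/N159S library or Ikzf3 N159S/N159S replicate 2. Arrdc4, another target of MondoA and a relative of Txnip, rested on 14 to 42 reads and was at 1.20 and 2.55 CPM with Ikzf3 +/+, at 1.30 and 1.48 CPM with Ikzf3 +/N159S and at 2.44 and 1.76 CPM with Ikzf3 N159S/N159S, where both Ikzf3 N159S/N159S libraries were above both Ikzf3 +/N159S libraries and Ikzf3 +/+ overlapped with each (log2 fold change between the variant genotypes 0.60, FDR 0.671 by edgeR's quasi-likelihood test, which did not pass).

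No gene of pyruvate control passed against Ikzf3 +/+, whether by edgeR's quasi-likelihood test or by DESeq2, although 2 of the 5 reached an unadjusted p under 0.05 for 2 variant alleles and 1 for 1 allele (18.4 and 16.3% of all genes did). Pdk1 encodes the kinase that switches off pyruvate dehydrogenase and was by far the most abundant of its family, at 416 and 386 CPM with Ikzf3 +/+, at 359 and 443 CPM with Ikzf3 +/N159S and at 303 and 326 CPM with Ikzf3 N159S/N159S. Both Ikzf3 N159S/N159S libraries were below the other 4, with a log2 fold change of -0.35 (SE 0.11, FDR 0.120 by edgeR's quasi-likelihood test). Pdk2, a kinase of the same function, was at 7.64 and 7.26 CPM with Ikzf3 +/+, at 11.4 and 9.01 CPM with Ikzf3 +/N159S and at 10.3 and 9.88 CPM with Ikzf3 N159S/N159S. All 4 variant libraries were above both Ikzf3 +/+ libraries in Pdk2, but its log2 fold changes of 0.44 and 0.46 did not pass. Mpc1 and Mpc2, the 2 subunits of the mitochondrial pyruvate carrier, had log2 fold changes of 0.05 and 0.01 in Ikzf3 N159S/N159S, with overlapping libraries.

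In the pentose phosphate pathway no gene passed against Ikzf3 +/+, whether by edgeR's quasi-likelihood test or by DESeq2, although 3 of the 5 reached an unadjusted p under 0.05 for 2 variant alleles and 1 for 1 allele (18.4 and 16.3% of all genes did). The 2 nearest to the threshold had positive log2 fold changes. Pgls (chr8:71592184-71596267), the lactonase of the oxidative branch, was at 31.7 and 26.3 CPM with Ikzf3 +/+, at 35.4 and 39.6 CPM with Ikzf3 +/N159S and at 41.7 and 39.4 CPM with Ikzf3 N159S/N159S, and Tkt, the transketolase of the non-oxidative branch, at 114 and 117 CPM with Ikzf3 +/+, at 131 and 118 CPM with Ikzf3 +/N159S and at 145 and 149 CPM with Ikzf3 N159S/N159S. For both genes all variant libraries were above both Ikzf3 +/+ libraries, and the Tkt libraries were in rising order of allele number. The log2 fold changes in Ikzf3 N159S/N159S were 0.48 for Pgls (SE 0.13, FDR 0.0553 by edgeR's quasi-likelihood test) and 0.35 for Tkt (SE 0.10, FDR 0.0631), and the call of Pgls was made under 4 and that of Tkt under 3 of 15 alternatives. Taldo1, the transaldolase that works with Tkt, lay the other way, at 129 and 131 CPM with Ikzf3 +/+, at 126 and 109 CPM with Ikzf3 +/N159S and at 113 and 108 CPM with Ikzf3 N159S/N159S (log2 fold change -0.23). G6pdx and Pgd, the dehydrogenases that make NADPH, had log2 fold changes of 0.04 and -0.18.

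Summed over the steps, lower glycolysis was at 1990.1 and 1975 CPM with Ikzf3 +/+, 1723 and 1572 CPM with Ikzf3 +/N159S and 1555 and 1524 CPM with Ikzf3 N159S/N159S, and all Ikzf3 +/+ libraries were above all others. Most of the fall with both alleles changed lay in Eno1 and Pkm, which had been called. Means were 1983 CPM for the sum, 520.4 for Eno1 and 693 for Pkm with Ikzf3 +/+. With Ikzf3 N159S/N159S they were 1539, 254 and 537 CPM. The sum of upper glycolysis was 1135 to 1278 CPM and that of the pentose phosphate genes 383 to 413 CPM over the 6 libraries. The genotypes overlapped in the first of these sums, and in the second the Ikzf3 N159S/N159S libraries were above all others by a narrow margin. The transport sum, most of it Txnip, was 1038 and 961 CPM with Ikzf3 +/+, 722 and 797 CPM with Ikzf3 +/N159S and 997 and 1191 CPM with Ikzf3 N159S/N159S. All 36 genes together took 5056 and 5006 CPM with Ikzf3 +/+, 4536 and 4379 CPM with Ikzf3 +/N159S and 4589.8 and 4663 CPM with Ikzf3 N159S/N159S. The mean of this sum was 5031 CPM with Ikzf3 +/+ and 4626 CPM with Ikzf3 N159S/N159S, a smaller fall than that of Eno1 and Pkm together. The exact permutation test of 2 libraries against 2 cannot give a two-sided p below 0.333, so these sums are descriptions.

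Across the 36 genes, the libraries of Ikzf3 N159S/N159S and Ikzf3 +/+ did not overlap for 23 (63.9%, against 48.3% of all genes), 14 below and 9 above. For Ikzf3 +/N159S and Ikzf3 +/+ it was 18 of the 36 (against 47.1% of all genes), 11 below and 7 above. The mean of Ikzf3 +/N159S lay between the other means for 19 (52.8%, against 38.7%). All 6 libraries were in falling order of allele number for 4 genes, Eno1, Ldhb, Pfkp and Pkm (11.1%, against 3.67% of all genes), and in rising order for Tkt alone (2.78%, against 4.08%). The 4 genes in falling order were also the 4 called in Ikzf3 N159S/N159S, which the order partly fixes.

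Isozymes of a step were compared by their share of the step's reads per kilobase of exon, without a test. Of the reads per kilobase of Eno1 and Eno3, Eno1 made up 93.9 and 92.03% with Ikzf3 +/+, 90.4 and 86.99% with Ikzf3 +/N159S and 83.6 and 85.02% with Ikzf3 N159S/N159S. The share of Eno3 was thus 7.03 ± 1.33% in Ikzf3 +/+ and 15.7 ± 0.984% in Ikzf3 N159S/N159S (SD, n = 2), with the level of Eno3 itself overlapping between genotypes. By reads without division by length it was 4.44 and 10.3%. Among phosphofructokinases, Pfkp made up 52.7 and 48.8% with Ikzf3 +/+, 47.9 and 45.1% with Ikzf3 +/N159S and 40.6 and 40.6% with Ikzf3 N159S/N159S, and Pfkl 31.6 and 36.04% with Ikzf3 +/+, 37.95 and 39.1% with Ikzf3 +/N159S and 44.5 and 43.7% with Ikzf3 N159S/N159S. Pfkp led in all Ikzf3 +/+ and Ikzf3 +/N159S libraries and Pfkl in both Ikzf3 N159S/N159S libraries, while the share of Pfkm stayed between 14.1 and 15.8%. By reads without division by length, Pfkp kept the lead in Ikzf3 N159S/N159S at 45.3% against 42.7% for Pfkl, so the crossing rests on exon length, whereas the direction of the shift does not.

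Pfkfb3 made up 78.5 and 74.1% with Ikzf3 +/+, 68.8 and 66.8% with Ikzf3 +/N159S and 61.3 and 65.9% with Ikzf3 N159S/N159S of the reads per kilobase of Pfkfb3 and Pfkfb4. Ldhb made up 9.03 and 8.23% with Ikzf3 +/+, 8.16 and 7.51% with Ikzf3 +/N159S and 5.76 and 5.17% with Ikzf3 N159S/N159S of those of the lactate dehydrogenases. Both shares were lowest in the 2 Ikzf3 N159S/N159S libraries and without overlap with Ikzf3 +/+. Pdk1 made up 88.8 ± 0.509% of the pyruvate dehydrogenase kinases in Ikzf3 +/+ and 85.4 ± 0.571% in Ikzf3 N159S/N159S (SD, n = 2). Slc2a1 and Slc2a3 divided the transporter reads per kilobase about evenly in all libraries, with 47.8 to 52.2% from Slc2a1.

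**Figure D3:**
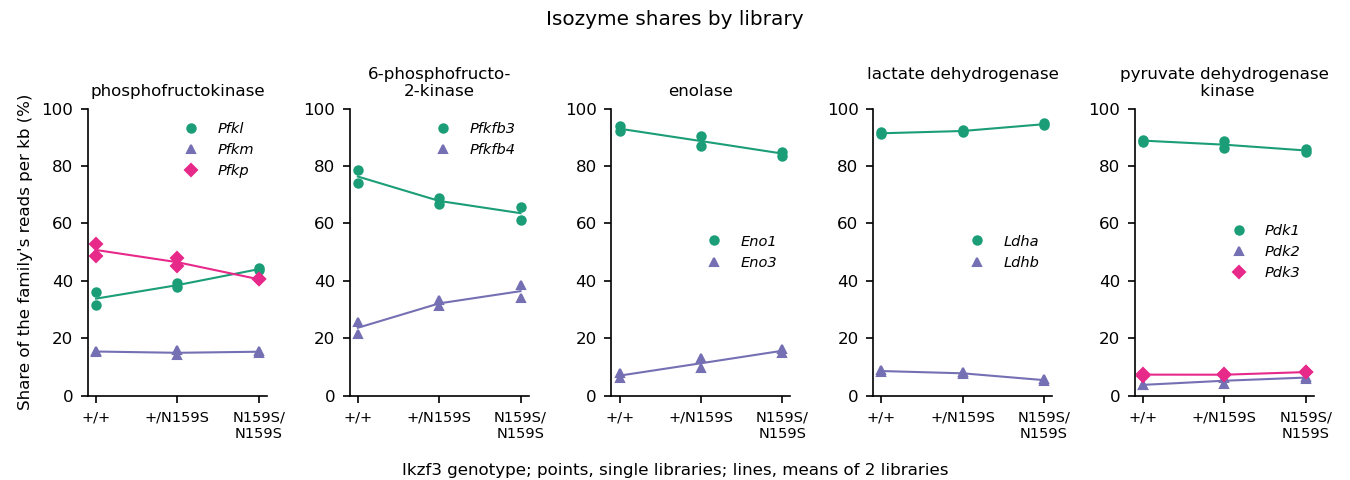
Share of each isozyme in the reads per kilobase of its enzyme, in percent, for 5 enzymes (points, single libraries; lines, means of 2 libraries; x axis, Ikzf3 genotype). Eno1, Pfkp, Pfkfb3 and Ldhb take a smaller share in Ikzf3 N159S/N159S than in Ikzf3 +/+, and Pfkm stays near 15.4%.

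Levels per kilobase of exon spanned a wide range in Ikzf3 +/+. Txnip, Pkm, Ldha and Eno1 were highest, at 310.3, 267, 242 and 204 CPM per kb. Aldoa and Gpi1 followed at 116 and 111 CPM per kb. The glucose transporters Slc2a1 and Slc2a3 were both at 13.6 CPM per kb, and Slc16a3, Aldoc and Hk2 were lowest at 0.578, 0.543 and 0.167 CPM per kb. In Ikzf3 N159S/N159S, Eno1 was at 99.6 CPM per kb, below Aldoa at 124 and Gpi1 at 113. The order of Gapdh, at 45.9 CPM per kb in Ikzf3 +/+, is uncertain since reads shared with its pseudogenes may not have been counted.

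Pgk1, G6pdx and Pdk3 lie on chromosome X, and the Ikzf3 +/N159S libraries differed from the others in Xist. Pgk1, which encodes phosphoglycerate kinase, was at 133 and 122 CPM with Ikzf3 +/+, at 127 and 120.3 CPM with Ikzf3 +/N159S and at 112 and 129.6 CPM with Ikzf3 N159S/N159S. G6pdx was at 41.2 and 39.2 CPM with Ikzf3 +/+, at 40.6 and 35.97 CPM with Ikzf3 +/N159S and at 41.4 and 40.99 CPM with Ikzf3 N159S/N159S, and Pdk3, a pyruvate dehydrogenase kinase, at 13.4 and 13.7 CPM with Ikzf3 +/+, at 12.8 and 14.6 CPM with Ikzf3 +/N159S and at 12.1 and 12.7 CPM with Ikzf3 N159S/N159S. Against Ikzf3 +/+, their log2 fold changes for 1 variant allele were -0.04, -0.07 and 0.01 (SE 0.11, 0.11 and 0.15), and the Ikzf3 +/N159S and Ikzf3 +/+ libraries overlapped for each. The Ikzf3 N159S/N159S libraries of Pdk3 were below both other genotypes, with a log2 fold change against Ikzf3 +/+ of -0.13 (FDR 0.730 by edgeR's quasi-likelihood test).

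A further 117 genes around these pathways were listed, of which 100 were tested. In Ikzf3 N159S/N159S against Ikzf3 +/+, 6 of them were called, 3 higher and 3 lower (6.00%, against 5.21% of all genes), and in Ikzf3 +/N159S none was called, with 12 at an unadjusted p under 0.05 (16.3% of all genes were) and 2, Irf4 and Mlxip, called by DESeq2. Other isozymes and partners had 1 of 31 called, the pyruvate dehydrogenase complex 0 of 9, glycogen and hexosamine enzymes 1 of 21 and regulators 4 of 39. Gpd2 encodes the mitochondrial glycerol 3-phosphate dehydrogenase, which carries electrons from glycolytic NADH to the respiratory chain, and was at 45.7 and 44.6 CPM with Ikzf3 +/+, at 32.9 and 32.7 CPM with Ikzf3 +/N159S and at 28.1 and 23.9 CPM with Ikzf3 N159S/N159S. Its libraries were in falling order of allele number, as for Eno1, with a log2 fold change of -0.80 for 2 variant alleles (SE 0.12, FDR 0.00324 by edgeR's quasi-likelihood test) that held under all 15 alternatives.

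Among regulators, Irf4, a transcription factor that promotes glycolysis in activated T cells, was at 16.6 and 20.4 CPM with Ikzf3 +/+, at 8.55 and 12.1 CPM with Ikzf3 +/N159S and at 3.49 and 3.37 CPM with Ikzf3 N159S/N159S. Its libraries fell in the order of allele number, and it was lower in Ikzf3 N159S/N159S than in Ikzf3 +/+ (log2 fold change -2.43, SE 0.22, FDR 0.000120 by edgeR's quasi-likelihood test) and than in Ikzf3 +/N159S (log2 fold change -1.58, SE 0.23, FDR 0.00677). Egln3, a prolyl hydroxylase that marks Hif1a for destruction, had 26 and 29 reads with Ikzf3 +/+, 19 and 41 reads with Ikzf3 +/N159S and 2 reads in each Ikzf3 N159S/N159S library. Over the summed reads, the ratio of Ikzf3 +/+ to Ikzf3 N159S/N159S was 15.995 (95% exact Poisson interval 5.90 to 60.8, for counting error only), and the FDR was 0.00860 by edgeR's quasi-likelihood test. The call of Egln3 was lost without Ikzf3 N159S/N159S replicate 1. Hif1a itself was at 152 and 143 CPM with Ikzf3 +/+, at 139 and 144 CPM with Ikzf3 +/N159S and at 123 and 141 CPM with Ikzf3 N159S/N159S, with a log2 fold change of -0.16 that did not pass, and Egln1, the main prolyl hydroxylase, had one of 0.05.

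Myc, a transcription factor that drives glycolytic genes in activated T cells, was at 102 and 102 CPM with Ikzf3 +/+, at 109.8 and 109 CPM with Ikzf3 +/N159S and at 133 and 143 CPM with Ikzf3 N159S/N159S. Akt1, a kinase that promotes glucose uptake, was at 133 and 128 CPM with Ikzf3 +/+, at 147 and 136 CPM with Ikzf3 +/N159S and at 177 and 163 CPM with Ikzf3 N159S/N159S. Both were higher in Ikzf3 N159S/N159S than in Ikzf3 +/+, with log2 fold changes of 0.44 (SE 0.09, FDR 0.0191 by edgeR's quasi-likelihood test) and 0.38 (SE 0.10, FDR 0.0450). Each call was lost without any one of the 4 libraries compared, and that of Akt1 also with the replicate number as a block. The 4 regulators called between these genotypes were thus 2 higher, Myc and Akt1, and 2 lower, Irf4 and Egln3. They were 10.3% of the 39 tested, against 5.21% of all genes.

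**Figure D4:**
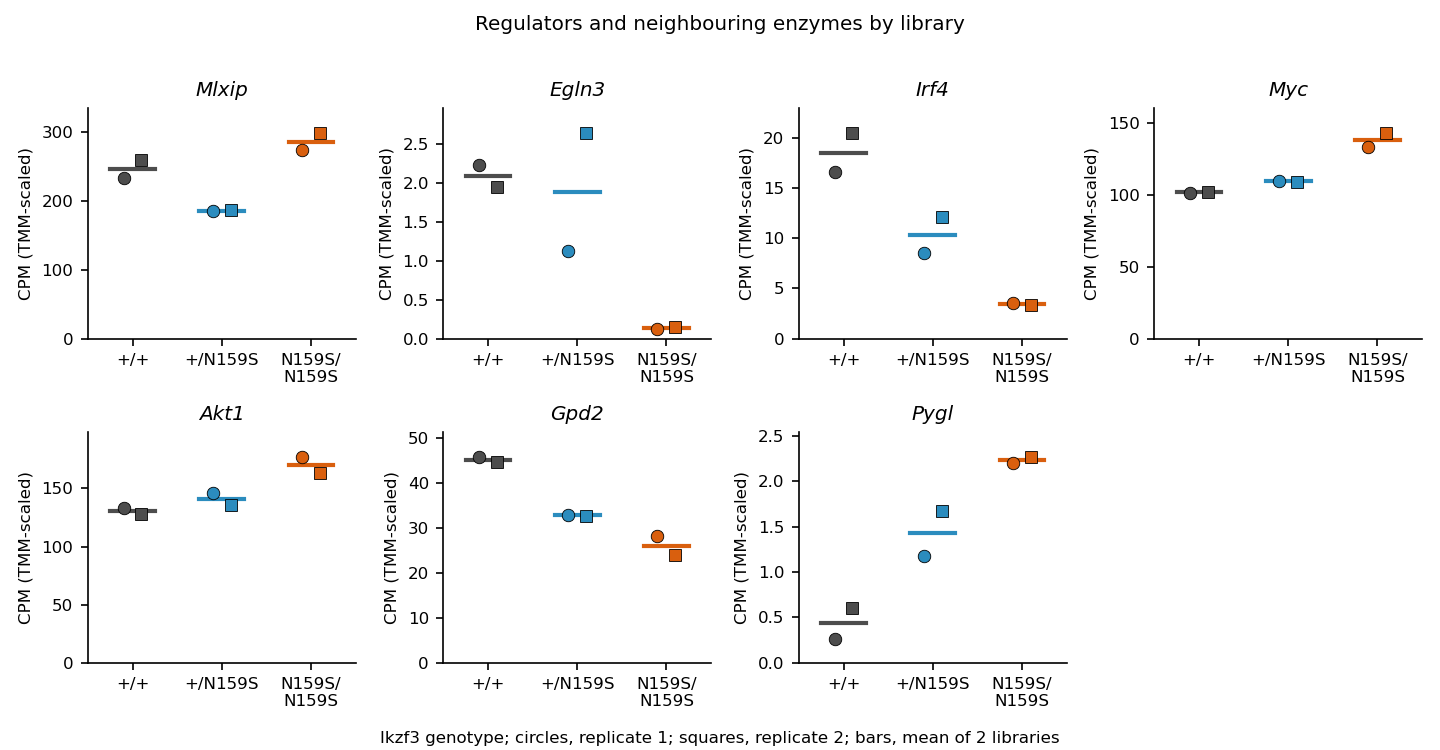
Level of 7 genes around the pathways in each library, in CPM scaled by TMM (circle, replicate 1; square, replicate 2; bar, mean of 2 libraries), with every axis starting at 0. Irf4 and Gpd2 step down with each N159S allele, Egln3 is near 0 in Ikzf3 N159S/N159S, Mlxip is lowest in Ikzf3 +/N159S, and Myc, Akt1 and Pygl are highest in Ikzf3 N159S/N159S.

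The libraries also differed in transcripts of other cells and states. The Ikzf3 N159S/N159S and Ikzf3 +/+ libraries, between which the 4 members were called, had B cell marker sums of 220.2 and 146 and 218 and 341 CPM. Effector and memory T cell markers, 14 of 14 in the files, summed to 103 and 88.6 CPM with Ikzf3 +/+, 112 and 127 CPM with Ikzf3 +/N159S and 60.6 and 75.3 CPM with Ikzf3 N159S/N159S, and the 8 regulatory T cell markers to 109.9 and 122 CPM with Ikzf3 +/+, 189 and 162 CPM with Ikzf3 +/N159S and 119.6 and 115 CPM with Ikzf3 N159S/N159S. The 11 CD8 and NK cell markers summed to 71.2 and 76.96 CPM with Ikzf3 +/+, 64.3 and 59.97 CPM with Ikzf3 +/N159S and 48.7 and 43.8 CPM with Ikzf3 N159S/N159S, and the 15 cycling cell markers to 529 and 532 CPM with Ikzf3 +/+, 514 and 497 CPM with Ikzf3 +/N159S and 472 and 490.3 CPM with Ikzf3 N159S/N159S. Both sums were in falling order of allele number over all 6 libraries, as were Eno1, Ldhb, Pfkp and Pkm. By gene, Ikzf3 N159S/N159S was also set against Ikzf3 +/+ by edgeR's quasi-likelihood test. An unadjusted p under 0.05 was reached by 7 of 13 B cell markers tested and 4 of 10 effector and memory T cell markers. It was reached by 4 of 8 regulatory T cell markers, 4 of 8 CD8 and NK cell markers and 0 of 14 cycling cell markers. For myeloid markers it was 5 of 12, for immediate early genes 4 of 12 and for erythroid and platelet markers 0 of 5. It was reached by 1 of 10 CD4 T cell markers and by 18.4% of all genes. At an FDR under 0.05, 4 B cell markers were called, all lower. So was 1 each of the effector and memory, regulatory T and CD8 and NK markers, all lower (5.21% of all genes were called). The 13 immediate early genes summed to 10066 and 10329.7 CPM with Ikzf3 +/+, 9096 and 9206 CPM with Ikzf3 +/N159S and 10057 and 9782 CPM with Ikzf3 N159S/N159S, with both Ikzf3 +/N159S libraries below the other 4, as for Txnip. Myeloid markers summed to 62.1 to 87.4 CPM and erythroid and platelet markers, 5 of 11 at 0 in all libraries, to 5.75 to 14.6 CPM. The part of these cells and states in the results was not tested.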

How the data were processed

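RNA-seq of splenic T cells was analysed, with 6 libraries in 3 genotypes. The authors selected poly(A) RNA, prepared libraries with the NEBNext Ultra II kit, trimmed reads with Trimmomatic 0.38.1, mapped them to mm10 with HISAT2 2.2.1 and counted them per refGene gene with HTSeq 2.0.2, and they deposited these whole-number counts without normalization. Use of strand in counting is not given in the sources used here, so reads of overlapping genes are uncertain. Reads on no gene, ambiguous, unaligned or not unique stood in separate entries (reads on genes were 50.7 to 57.7% of all entries) and were left out of library sizes.

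Genotypes came from the labels. Counts were fitted in R 4.3.3 with edgeR 4.0.16 (filterByExpr, minimum count 10 and minimum total 15, which kept 12117 of 25239 genes, TMM scaling, 1 coefficient per genotype over all 6 libraries, quasi-likelihood test), and p-values were adjusted by Benjamini-Hochberg over the genes tested (threshold 0.05). The test was checked on simulated counts. Fold changes are on the log2 scale. Exon lengths and shared 50-base words came from the GENCODE annotation of GRCm38, the same build as mm10, and gene coordinates and promoters from RefSeq.

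Replicate numbers did not pair the libraries: deviations of libraries with the same number correlated at -0.17, -0.22 and 0.24 between genotypes. With the Ikzf3 +/+ numbers exchanged, as in the block by genes detected, all of these would be positive. What the libraries so paired have in common was not tested. Alternatives were DESeq2 1.42.0, its size factors, library totals, other filters, blocks by replicate number or by genes detected, the likelihood ratio test, a fit of only the 2 genotypes compared and each library left out. The members and lists were chosen with earlier results of these data known, and so was the block by genes detected. Full statistics were given for members past the threshold in any comparison and then by p up to 6, for members on chromosome X by library, and for pathway genes past the threshold against Ikzf3 +/+. Other members were given by values and counts.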

Additional observations from a re-analysis of the deposited data

How the results depend on the processing

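At 2 libraries per genotype, small changes of low genes such as Hk2 or Slc16a3 were not detectable, and those of well expressed genes could be missed too. A gene without a call is thus not shown to be unchanged, with 1 variant allele above all. The counts of members called were 4 in Ikzf3 N159S/N159S against Ikzf3 +/+, 1 in Ikzf3 +/N159S against Ikzf3 +/+, 1 between the variant genotypes and 1 off the midpoint. Leaving out each library in turn gave 1 to 6, 0 to 1, 0 to 1 and 0 to 1, with a lone library assumed to vary like the other genotypes. With the replicate number as a block the counts were 3, 1, 1 and 1, with Pkm the one lost, and all genes called numbered 495 and 149 against Ikzf3 +/+, where 631 and 212 were called without it. No filter on low counts gave 9, 2, 2 and 1, the likelihood ratio test 7, 3, 4 and 1, and DESeq2 4, 2, 2 and 1. A block by genes detected, which pairs +/+ replicate 1 with replicate 2 of the other genotypes and so crosses the numbers, gave 14 (10 lower, 4 higher), 6, 6 and 2. For all genes, Ikzf3 N159S/N159S against Ikzf3 +/+ gave 1047 calls with no filter, 1042 with the likelihood ratio test, 1760 with the block by genes detected and 257 to 734 with a library left out. Ikzf3 +/N159S against Ikzf3 +/+ gave 710, 640, 1385 and 83 to 251, and 341 with DESeq2. No called value changed sign under any alternative. Other scalings left the 4 and the 1 as they were and moved the median of all genes by at most 0.044 on the log2 scale.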

Other observations

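Pygl, the liver glycogen phosphorylase, was at 0.257 and 0.605 CPM with Ikzf3 +/+, at 1.18 and 1.67 CPM with Ikzf3 +/N159S and at 2.21 and 2.27 CPM with Ikzf3 N159S/N159S and rested on 3 and 9 reads in Ikzf3 +/+. Over the summed reads, Ikzf3 N159S/N159S was 4.94 times Ikzf3 +/+ (95% exact Poisson interval 2.66 to 10.03, for counting error only), with an FDR of 0.0317 by edgeR's quasi-likelihood test. The call was lost without any one of the 4 libraries compared. The other 20 genes of glycogen and hexosamine metabolism did not pass against Ikzf3 +/+, and the list's median log2 fold change was 0.04. Between the variant genotypes, Pgm2l1, which makes glucose 1,6-bisphosphate and was named after its values were seen, was higher in Ikzf3 N159S/N159S at 38.4 and 42.9 CPM with Ikzf3 +/+, at 31.96 and 30.2 CPM with Ikzf3 +/N159S and at 42.6 and 49.7 CPM with Ikzf3 N159S/N159S (log2 fold change 0.57, SE 0.12, FDR 0.0469 by edgeR's quasi-likelihood test), a call that held under 6 of 14 alternatives.

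The 9 tested genes of the pyruvate dehydrogenase complex and its regulators gave no call against Ikzf3 +/+ in either variant genotype by edgeR's quasi-likelihood test or by DESeq2, none of them had an unadjusted p under 0.05, and their median log2 fold changes were -0.02 and 0.02. Their sum was 417 to 447 CPM over the 6 libraries.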
